A study of Mus musculus with 9 samples.

Results

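Of 9 RNA libraries of mouse aortic arch, 4 held Myh6, the alpha heavy chain of cardiac myosin, at 100 FPKM or more and 5 held it under 100 FPKM. FPKM, the unit of all levels here, is a count of fragments scaled by the length of the gene and by the total of the library. The 4 libraries, called muscle-high, were control 1, control 2, high dose 2 and high dose 3, and the 5 muscle-low libraries were control 3, model 1, model 2, model 3 and high dose 1. The division therefore ran across the labelled groups and was made from a measured value, whatever the treatment. A gene was said to follow heart muscle by the gap between its lowest muscle-high and its highest muscle-low value. That gap had to be at least 1 on the log2(FPKM + 1) scale, which is 2-fold in FPKM + 1. Of 12895 genes tested, those with at least 1 FPKM in at least 3 libraries, 136 met that rule, out of 21989 genes in the table. Myh6, the gene of the division, is among the 136, and its place there is no finding.

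The study asked how a preparation named ZCL, from the plant Ziziphora clinopodioides Lam., acts on atherosclerosis in mice. Control libraries were from C57BL/6J mice on standard diet. Model libraries were from ApoE-/- mice, which lack apolipoprotein E, on high-fat diet for 15 weeks. High dose libraries were from mice of that same genotype and diet that also took ZCL at 5.12 g/kg/day by gavage over the 15 weeks. Each group had 3 libraries, so the lost Apoe gene and the high-fat diet were shared by model and high dose and both differed from control together. Age is not given in the sources used here, and the labels do not say whether the 3 libraries of a group were separate mice. The spread that a p-value is set against may therefore be technical.

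The aortic arch springs from the heart, and the atria, their auricles and the sleeves of cardiac muscle around the great veins lie against it. Heart muscle cells contract through sarcomeres, in which myosin heavy and light chains pull on actin filaments under the control of troponin and tropomyosin, and calcium released from the sarcoplasmic reticulum starts each beat. Atrial and ventricular cells use different light chains and hormones, so the mixture of such genes describes which cardiac transcripts a piece of tissue held. In whole tissue, fewer cells of a type and less RNA per cell cannot be told apart.

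Promoter windows of 5 follower genes are shown because they are the 3 markers of the division and 2 of the most abundant sarcomere genes that follow them. They are RefSeq windows on GRCm38.p6, from 250 bases before to 50 bases after the annotated start, read 5′ to 3′ on the strand of the gene, with capitals marking every match to the motifs searched. Myh6 lies at chr14:54966558-54966857 on the minus strand, Nppa at chr4:148000472-148000771 on the plus strand, Tnnc1 at chr14:31208062-31208361 on the plus strand, Tnni3 at chr7:4522479-4522778 on the minus strand and Myl7 at chr11:5898733-5899032 on the minus strand.
Myh6: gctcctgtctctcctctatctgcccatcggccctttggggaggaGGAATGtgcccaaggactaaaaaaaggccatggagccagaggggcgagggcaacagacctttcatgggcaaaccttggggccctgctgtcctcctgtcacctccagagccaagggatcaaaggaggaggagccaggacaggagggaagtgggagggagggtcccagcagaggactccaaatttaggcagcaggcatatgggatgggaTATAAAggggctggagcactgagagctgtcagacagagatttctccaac
Nppa: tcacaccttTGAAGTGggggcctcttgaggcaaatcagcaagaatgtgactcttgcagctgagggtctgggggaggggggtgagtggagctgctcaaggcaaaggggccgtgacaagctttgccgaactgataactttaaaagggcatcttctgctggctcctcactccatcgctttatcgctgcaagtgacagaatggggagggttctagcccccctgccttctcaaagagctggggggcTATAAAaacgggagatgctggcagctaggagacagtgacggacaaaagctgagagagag
Tnnc1: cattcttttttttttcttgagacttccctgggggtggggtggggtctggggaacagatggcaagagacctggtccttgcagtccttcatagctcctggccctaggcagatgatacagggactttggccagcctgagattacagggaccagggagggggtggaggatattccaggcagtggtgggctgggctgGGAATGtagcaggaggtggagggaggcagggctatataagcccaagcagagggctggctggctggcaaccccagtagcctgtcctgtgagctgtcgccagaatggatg
Tnni3: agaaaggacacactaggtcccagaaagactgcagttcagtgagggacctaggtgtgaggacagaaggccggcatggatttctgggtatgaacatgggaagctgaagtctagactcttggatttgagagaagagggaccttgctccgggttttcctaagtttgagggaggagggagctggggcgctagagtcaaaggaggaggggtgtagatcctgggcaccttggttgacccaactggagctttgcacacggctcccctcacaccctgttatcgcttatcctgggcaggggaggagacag
Myl7: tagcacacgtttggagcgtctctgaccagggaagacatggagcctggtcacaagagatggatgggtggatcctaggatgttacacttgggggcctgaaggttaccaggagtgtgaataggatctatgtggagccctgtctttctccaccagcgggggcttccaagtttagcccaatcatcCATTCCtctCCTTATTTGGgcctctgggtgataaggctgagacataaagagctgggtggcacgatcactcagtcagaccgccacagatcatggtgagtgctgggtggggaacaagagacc
The motifs, each searched on both strands, were AGATAA of GATA factors, CATTCC of TEAD factors (the M-CAT element), TNAAGTG of NKX2 factors, the TATA box TATAAA, the MEF2 site and the CArG box of SRF. The letters of the TATA box can lie inside a MEF2 site. Myh6 and Tnnc1 held an M-CAT element on the opposite strand, Nppa an NKX2 match, and Myl7 an M-CAT element beside a CArG box. The letters TATAAA matched in the windows of Myh6 and Nppa, at positions 2 and -9 from the annotated start. The Tnnc1 window holds TATATAAG, a similar stretch that this search does not count. None of the 6 motifs matched in the window of Tnni3, whose level kept the steadiest ratio to Myh6 of the 66 followers compared below. In GENCODE M21 the genes Myh6 and Tnni3 begin upstream of these windows, at chr14:54966927 and chr7:4524229, and those starts were not searched.

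Windows were found for 98 of the 136 followers, 115 windows in all, and for 9852 of the genes tested, 12570 windows. The MEF2 site occurred in 7 of the 115 follower windows (6.09%) and in 0.493% of all windows, and the CArG box in 7 (6.09%) and in 1.34% of all. AGATAA was found in 27 follower windows (23.5%) beside 6.57% of all, and the M-CAT element in 30 (26.1%) beside 12.2%. TATAAA occurred in 22 (19.1%) beside 7.63%, and TNAAGTG in 12 (10.4%) beside 8.89%. The followers were chosen by their levels, so these shares are a description, and a match is not a binding site.

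Depth, read from the steps between low FPKM values, ran from 56.3% of the deepest library in control 2 to 100% in model 1. Summed FPKM ranged from 402803 to 492791, and 11314 to 13191 genes reached 1 FPKM. Markers of the arch wall were present in all libraries, with Acta2, smooth muscle actin, from 177 FPKM in high dose 1 to 1857 FPKM in model 1. Apoe, the gene removed in the model and high dose mice, stood at 829, 1006 and 339.9 FPKM in control 1 to 3, at 18.9, 33.4 and 24.5 FPKM in model 1 to 3, and at 30.3, 93.7 and 25.4 FPKM in high dose 1 to 3, so all 6 libraries of the ApoE-/- groups lay under all 3 controls.

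The markers of heart muscle divided the libraries in the same way. Myh6 stood at 2729, 807 and 1.85 FPKM in control 1 to 3, at 6.34, 2.89 and 3.80 FPKM in model 1 to 3, and at 2.18, 634 and 1554 FPKM in high dose 1 to 3. The lowest muscle-high library was therefore 99.9-fold above the highest muscle-low library. Nppa, which encodes atrial natriuretic peptide, was at 6483, 824 and 2.77 FPKM in the controls, 9.35, 7.72 and 8.44 FPKM in the model libraries, and 2.17, 1433 and 1874 FPKM in the high dose libraries. Tnnc1, the calcium-binding troponin of cardiac and slow muscle, read 1257, 535 and 6.24 FPKM in control, 5.12, 3.92 and 5.12 FPKM in model, and 3.92, 445 and 1120.2 FPKM in high dose. No library changed sides with the choice of marker, and none lay between 6.34 and 634 FPKM of Myh6. The muscle-low libraries were not at 0 for any of these markers.

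Across all genes tested, 722 lay higher in every muscle-high than in every muscle-low library (5.6% of genes tested) and 249 lay lower (1.93%). After rescaling the libraries by median ratios these counts were 596 and 451, and the median log2 difference over all genes went from 0.057 to -0.0081. Without high dose 1 the higher count was 1139. The lower count was 663 without control 2, 819 without model 1, 416 without high dose 1 and 403 without high dose 3. The 136 followers were 1.05% of genes tested, and no gene (0%) lay lower by the same gap, the widest being 0.83 for Hoxa6. These are descriptions of libraries divided by a gene of the same table, and carry no test.

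The followers had a median log2 difference between the medians of the sides of 3.61. In 58 of them the lowest muscle-high value was at least 10 times the highest muscle-low value, and 52 were at or under 1 FPKM in all 5 muscle-low libraries. Another 20 exceeded 10 FPKM in some muscle-low library, so their transcripts were present on both sides. The followers made up 14.4% and 3.82% of summed FPKM in control 1 and 2 and 6.65% and 8.37% in high dose 2 and 3, but 0.193% to 0.267% in the muscle-low libraries. At the edge of the rule, Zfp579 and Asb2 had gaps of 1.00 and 1.01 just inside it, while Ldb3 and Arl4d had gaps of 1.00 and 0.99 just outside it.

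**Figure D1:**
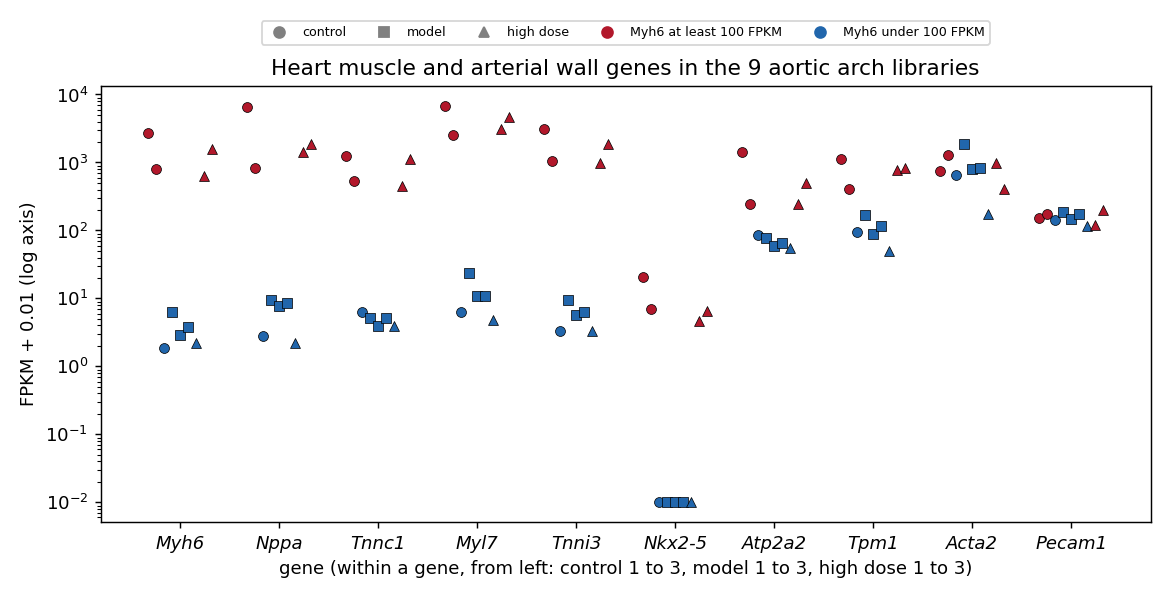
FPKM + 0.01 on a log axis for 8 heart muscle genes and for Acta2 and Pecam1 of the arterial wall. Each point is 1 library, its shape is the labelled group and its colour the side of the division (red, Myh6 of at least 100 FPKM). The sides are apart from Myh6 to Tpm1 (Myh6 at least 634 FPKM against at most 6.34 FPKM; Nkx2-5 listed at 0 in the 5 muscle-low libraries) and mix in Acta2 and Pecam1.

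Genes of the sarcomere followed heart muscle almost throughout. Of 39 genes in the list of cardiac sarcomere proteins 38 were tested. Of these, 34 were higher without overlap, 31 of those were followers, 4 overlapped and none was lower. These counts include Myh6, which made the division, and the marker Tnnc1. The median log2 difference was 4.74, beside 0.057 over all genes tested. For this and the later lists, the shares over all genes tested were 5.6% higher without overlap and 1.05% followers. Their summed level was 10113 to 32616 FPKM in the muscle-high and 160.1 to 475 FPKM in the muscle-low libraries. Myl7, the regulatory light chain of atrial myosin, was the most abundant, at 6861, 2540.4 and 6.39 FPKM in control 1 to 3, 23.3, 10.7 and 10.7 FPKM in model 1 to 3, and 4.78, 3155 and 4632 FPKM in high dose 1 to 3. Tnnt2, the cardiac troponin that binds tropomyosin, was at 4610.2, 1451 and 5.37 FPKM in control, 18.2, 5.61 and 5.52 FPKM in model, and 4.09, 2162 and 4082 FPKM in high dose. Both genes were lowest in control 2 among the muscle-high libraries and highest in model 1 among the others.

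The inhibitory troponin Tnni3 read 3083, 1065 and 3.28 FPKM in control, 9.58, 5.62 and 6.33 FPKM in model, and 3.32, 986 and 1841 FPKM in high dose. Cardiac actin, Actc1, read 2479, 470.0 and 1.21 FPKM in control, 8.26, 3.45 and 8.98 FPKM in model, and 2.27, 1222 and 1813 FPKM in high dose. Its coding sequence is close to those of other actins, so the authors' counting could split reads among them. Titin, the giant spring encoded by Ttn, reached only 8.63 to 36.2 FPKM in the muscle-high libraries and stayed at or under 0.826 FPKM elsewhere. The thick filament protein Mybpc3 was at 65.3 to 230.2 FPKM against at most 0.923 FPKM. Ankrd1, a stress-responsive protein of the titin spring region, lay between 122 and 2267 FPKM in the muscle-high libraries and reached 23.0 FPKM in model 1, a narrower gap.

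Members shared with the arch wall had muscle-low levels far above 0. Tpm1, an alpha tropomyosin of striated and smooth muscle, was at 1116, 411 and 96.2 FPKM in control, 171, 89.6 and 117 FPKM in model, and 49.2, 775 and 819.7 FPKM in high dose. Des, the intermediate filament desmin, was at 240.0 to 1488 FPKM in the muscle-high and 13.7 to 59.0 FPKM in the muscle-low libraries. Both still kept the sides apart. The members higher by less than the 2-fold gap in FPKM + 1 were Ldb3, Nebl and Xirp1. The 4 overlapping members were Myl2, Myom1, Pdlim5 and Tnni1. Myom1, an M band protein, was at 58.8 FPKM in control 2 and 77.4 FPKM in model 1, and Pdlim5 at 24.9 and 31.1 FPKM in the same libraries. Tnni1, the slow skeletal and fetal troponin, lay between 0.0626 and 2.19 FPKM throughout.

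Chamber genes differed among the muscle-high libraries. Their lists share members with others, such as Myl7, Nppa and Tbx5, and the atrial counts include the marker Nppa. Of 13 genes tested of the 16 in the atrial list, 7 were higher without overlap, 6 of them followers, and 6 overlapped, with a median log2 difference of 2.14. Of 5 tested of the 6 ventricular genes, 3 were higher, 2 of them followers, and 2 overlapped, with a median of 4.04. The atrial sum was 4602 to 19466 FPKM in the muscle-high and 69.9 to 167 FPKM in the muscle-low libraries, and the ventricular sum 127 to 798 and 8.60 to 27.2 FPKM. Sarcolipin, Sln, an atrial inhibitor of the calcium pump, read 3271, 604 and 1.92 FPKM in control, 3.91, 1.91 and 3.59 FPKM in model, and 1.53, 1478 and 1409.8 FPKM in high dose. Myl4, the essential light chain of atrial myosin, was at 463 to 2190.0 FPKM against 2.68 to 6.66 FPKM.

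The ventricular regulatory light chain Myl2 was at 26.7, 236 and 4.74 FPKM in control 1 to 3, 1.78, 0.0611 and 4.65 FPKM in model 1 to 3, and 2.05, 0.504 and 457 FPKM in high dose 1 to 3. High dose 2, with 634 FPKM of Myh6, thus had less Myl2 than 4 of the 5 muscle-low libraries. As a share of Myl2 plus Myl7, Myl2 made up 0.387% and 8.49% in control 1 and 2 and 0.0160% and 8.98% in high dose 2 and 3. Myl3, the essential light chain of ventricular and slow skeletal muscle, was at 50.6, 86.6, 782 and 217 FPKM in those 4 libraries. It went the other way from Myl2 in high dose 2 only, where Myl3 was highest and Myl2 lowest. Both genes rose from control 1 to control 2 to high dose 3. The Myl3 share of Myl3 plus Myl4 was 2.26%, 15.7%, 59.3% and 16.1%. High dose 2 was also the library with the highest sum of fast skeletal muscle genes, 14753 FPKM against at most 595 FPKM elsewhere, and the part of skeletal muscle in its Myl3 was not tested.

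Myh7, the slow beta myosin heavy chain, was at 31.3, 19.6, 7.86 and 61.6 FPKM in control 1 and 2 and then high dose 2 and 3, or 1.13%, 2.37%, 1.23% and 3.82% of Myh7 plus Myh6. Myh7 (chr14:54970684-54994626, minus strand, GRCm38) and Myh6 (chr14:54941921-54966927, minus strand) are neighbours of similar sequence, and reads could be split between them. The following members were under the filter or were picked out after their values were seen. Bmp10, an atrial growth factor, was at 158 FPKM in control 1, 4.63 FPKM in control 2 and at most 0.151 FPKM in the other 7 libraries. Irx4, a ventricular factor, reached 3.15 FPKM in high dose 3 and 0.540 FPKM in control 2, and at most 0.124 FPKM in the rest. Control 2 and high dose 3 were thus close in their light chain shares, while control 1 and high dose 2 each differed from them in the direction given.

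**Figure D2:**
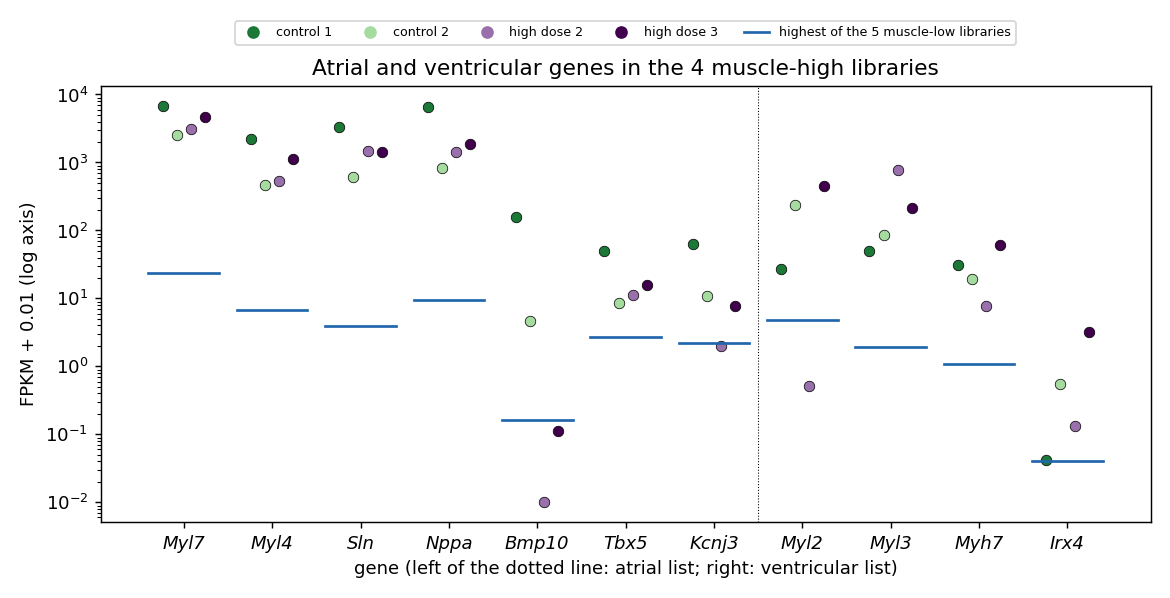
FPKM + 0.01 on a log axis for 7 atrial and 4 ventricular genes in the 4 muscle-high libraries, 1 point a library, with a blue line at the highest of the 5 muscle-low libraries. High dose 2 is lowest of the 4 for Myl2 (0.504 FPKM, under the blue line) and highest for Myl3 (782 FPKM), and Bmp10 is high in control 1 (158 FPKM).

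Genes of calcium handling and conduction were divided between the sides less completely. Of 36 tested of 38, 20 were higher without overlap, 12 of them followers, 16 overlapped and none was lower, with a median of 1.55. The calcium pump Atp2a2 was at 1403, 246 and 85.3 FPKM in control, 76.9, 58.4 and 65.5 FPKM in model, and 55.6, 247 and 496 FPKM in high dose, and was well expressed on both sides. Its brake phospholamban, Pln, lay at 58.8 to 623 FPKM against 2.69 to 11.1 FPKM, with the lowest of the 4 in high dose 2. The release channel Ryr2 had a median of 24.4 FPKM and reached 55.6 FPKM in control 1, against at most 3.39 FPKM, and the store protein Casq2 at 31.4 to 171 FPKM against at most 4.53 FPKM.

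Connexins and several channels were among the members that overlapped. Gja1, connexin 43, was at 92.0, 37.6, 30.5 and 71.7 FPKM in the muscle-high libraries and at 20.8 to 68.1 FPKM in the muscle-low ones. Gja5, connexin 40, was highest in model 1 at 26.2 FPKM. Kcnj3, a subunit of the acetylcholine-gated potassium channel of the atria, reached 62.8 FPKM in control 1 but stood at 1.98 FPKM in high dose 2 and 2.22 FPKM in high dose 1. Its partner Kcnj5 was a follower, at 2.36 to 27.1 FPKM against at most 0.0807 FPKM.

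Most transcription factors of the heart overlapped between the sides. Of 24 tested of 26, 6 were higher without overlap, 4 of them followers and Hopx and Nr2f1 by a smaller gap. The other 18 overlapped, and the list had a median of 0.71. Over all genes tested, 5.6% were higher without overlap and 1.05% were followers, smaller shares than in this list. Nkx2-5, a founding factor of heart muscle, was at 20.4 and 7.00 FPKM in control 1 and 2 and 4.61 and 6.59 FPKM in high dose 2 and 3, and was listed at 0 in all 5 muscle-low libraries. Gata4 was at 6.90 to 28.8 FPKM against at most 0.505 FPKM, and Tbx5 at 8.43 to 50.1 FPKM against 1.38 to 2.72 FPKM. Smyd1, a methyltransferase of striated muscle counted in this list, lay at 15.7 to 117 FPKM against at most 1.28 FPKM. Factors shared with other tissues overlapped, among them Gata6 with 19.2 FPKM in model 1, Hand2 with 103 FPKM in high dose 1 and Mef2c with 6.52 to 18.3 FPKM in all libraries. Tbx20 was at 10.7 FPKM in high dose 1 against 3.07 FPKM in high dose 2.

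Of secreted factors and their receptors, 3 of 13 tested were followers and 10 overlapped, with a median of 1.25. The followers were Nppa, Nppb, which encodes brain natriuretic peptide, and Corin, the protease that cuts pro-atrial natriuretic peptide. Nppb was at 407, 44.2 and 0.0462 FPKM in control, 0.568, 0.352 and 0.520 FPKM in model, and 0.294, 65.1 and 355 FPKM in high dose. Corin lay at 8.94 to 107 FPKM against at most 0.313 FPKM. The receptors did not follow the hormones. Npr1, the receptor of both peptides, was at 28.4 to 38.4 FPKM in the muscle-high and 34.7 to 57.3 FPKM in the muscle-low libraries, and Npr3, the clearance receptor, at 2.25 to 36.4 and 2.17 to 9.51 FPKM.

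Fewer genes of energy supply than of the sarcomere were followers. Of 40 genes of muscle energy supply and stress, 18 were higher without overlap, 7 of them followers, 21 overlapped and 1 was lower, with a median of 0.99. Myoglobin, Mb, the oxygen store of heart and slow muscle, was at 4276, 693 and 50.1 FPKM in control, 5.18, 5.61 and 38.0 FPKM in model, and 11.8, 2705 and 1427 FPKM in high dose. Cox6a2, the muscle form of a cytochrome oxidase subunit, was at 528 to 1358 FPKM against 2.75 to 15.7 FPKM. The adenine nucleotide carrier Slc25a4 was at 1186 to 3640.2 FPKM against 256 to 536 FPKM, and the small heat shock protein Cryab at 382 to 1361 FPKM against 54.7 to 118 FPKM. Muscle creatine kinase, Ckm, was higher by less than the 2-fold gap, from 91.0 FPKM in control 2 to 1364 FPKM in high dose 2 against at most 74.2 FPKM in model 3. The member lower without overlap was Phkb, a phosphorylase kinase subunit, at 4.78 to 5.64 FPKM against 6.38 to 7.72 FPKM.

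Heart muscle is known for oxidising fatty acids, but the genes of that pathway were not higher in the muscle-high libraries. All 38 genes of fatty acid oxidation and the citric acid cycle overlapped, 34 had the lower median in the muscle-high libraries, and the median of the list was -1.24. Cs, citrate synthase, was at 289, 187 and 844 FPKM in control, 179, 494 and 648 FPKM in model, and 412, 159.5 and 228 FPKM in high dose. Hadha, of the trifunctional protein, was at 91.9 to 241 FPKM against 99.5 to 567 FPKM, and Cpt1b, the muscle and brown fat carnitine transferase, at 124 to 307 FPKM against 79.5 to 476 FPKM. Among 61 respiratory chain genes 2 were higher without overlap and 59 overlapped, 52 had the lower median, and the list had a median of -0.55. Its follower was Atp5g1, a membrane ring subunit of ATP synthase, at 519.8, 201 and 16.6 FPKM in control, 37.6, 23.7 and 24.6 FPKM in model, and 53.2, 241 and 350.1 FPKM in high dose. The other was Atp5j, at 249 to 448 FPKM against 131 to 206 FPKM. Brown fat genes were highest in the library with the most Cs: their sum was 14733 FPKM in control 3, 1588 to 5301 FPKM in the other muscle-low libraries and 1905 to 3151 FPKM in the muscle-high ones, and their part in these levels was not tested.

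Outside the lists there were 76 followers, and the 20 of highest median among the muscle-high libraries included muscle proteins and others. Stard10, a lipid transfer protein, was at 534, 142 and 18.1 FPKM in control, 12.7, 15.1 and 21.4 FPKM in model, and 19.7, 269 and 203 FPKM in high dose. Mybphl, a myosin-binding protein of the atria, was at 74.1 to 339 FPKM against at most 0.445 FPKM, a 166-fold gap. Itgb1bp2, the chaperone melusin of striated muscle, was at 39.3 to 217 FPKM against at most 2.08 FPKM. Lrrc10, a heart-restricted leucine-rich protein, was at 12.0 to 57.5 FPKM against at most 0.133 FPKM. Rbm24, a splicing regulator of muscle, read 15.3 to 63.9 FPKM against at most 3.75 FPKM, and Pkp2, a desmosome protein of the intercalated disc, 19.8 to 71.8 FPKM against at most 6.40 FPKM.

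Iron regulators were among these followers. Hamp, which encodes hepcidin, was at 449, 104 and 2.73 FPKM in control, 0, 1.48 and 0.506 FPKM in model, and 2.33, 114 and 13.1 FPKM in high dose. Hfe2, which encodes hemojuvelin, was at 34.7 to 122 FPKM against 0.796 to 2.33 FPKM. Mlana, known as a pigment cell protein, was at 123 and 15.3 FPKM in control 1 and 2 and 4.99 and 62.9 FPKM in high dose 2 and 3, against at most 0.370 FPKM. Ahsg, the plasma protein fetuin-A, was at 12.6 to 103 FPKM against 0.309 to 5.50 FPKM. The rest of the 20 were Apobec2, Coro6, Doc2g, Art1, Mlf1, Txlnb, Asb2, Cmtm5, Myo18b and Camk2n1. Camk2n1, an inhibitor of CaM kinase II, was among those with narrow gaps, at 26.4 to 36.0 FPKM against 7.41 to 12.1 FPKM.

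The deposited annotation terms described the followers in the same way. Z disc was given to 24 followers out of 102 tested genes that carried it, or 17.9% of followers with terms against 0.810% of tested genes with terms. Cardiac muscle contraction was given to 18 of 44, sarcomere organization to 13 of 33, M band to 10 of 21 and regulation of heart rate to 10 of 25. Heart development was given to 13 of 191, or 6.81% of its tested genes. Followers were 1.05% of all genes tested, so each of these terms had a larger share. Most genes with the heart development term still did not follow heart muscle here. No enrichment was tested, since the division itself rests on a sarcomere gene.

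Among the 4 muscle-high libraries the followers kept different proportions to Myh6. Likeness was measured as the SD of the log2 ratio to Myh6 over the 4 libraries, for the 66 other followers with at least 10 FPKM in each. The median SD was 0.72, and 5 genes ranked the libraries as Myh6 did. Most, 48, had their highest level in control 1, while 12 were highest in high dose 2, 6 in high dose 3 and 0 in control 2. The steadiest was Tnni3, at 113%, 132%, 156% and 118% of Myh6 (control 1 and 2, then high dose 2 and 3), with an SD of 0.20. Myl4 followed with an SD of 0.25 and Tnnc1 with 0.30. Next in order were Pcp4l1, Atp2a2, Ryr2, Doc2g, Mybphl, Ckmt2 and Popdc2, with SDs of 0.32 to 0.41. Ckmt2 is the creatine kinase of muscle mitochondria, and Popdc2 a membrane protein of heart muscle.

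The least steady was Myl3, at 1.85%, 10.7%, 123% and 14.0% of Myh6 in the same order, a 66.6-fold range with an SD of 2.48. Apobec2, a muscle protein of the deaminase family, had a 27.2-fold range with its highest ratio in high dose 2. The ratio was also highest there for Des (13.1-fold range), Itgb1bp2 (7.43-fold), Tcap, a titin cap protein (7.40-fold), Fitm1 (6.70-fold) and Smyd1 (5.91-fold). Hamp stood at 16.5%, 12.9%, 17.9% and 0.844% of Myh6, a 21.2-fold range set by its low level in high dose 3. Ankrd1 ranged 9.66-fold, lowest in control 2, and Plscr2 7.10-fold, lowest in control 1. High dose 2 held the highest ratio for 8 of these 10 genes and for 50 of all 66. Among the 10 steadiest genes it did so for Tnni3, Myl4, Pcp4l1 and Mybphl only. High dose 2 had the lowest Myh6 of the 4 libraries and the most fast skeletal transcripts. The part of skeletal muscle in the ratios was not tested.

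**Figure D3:**
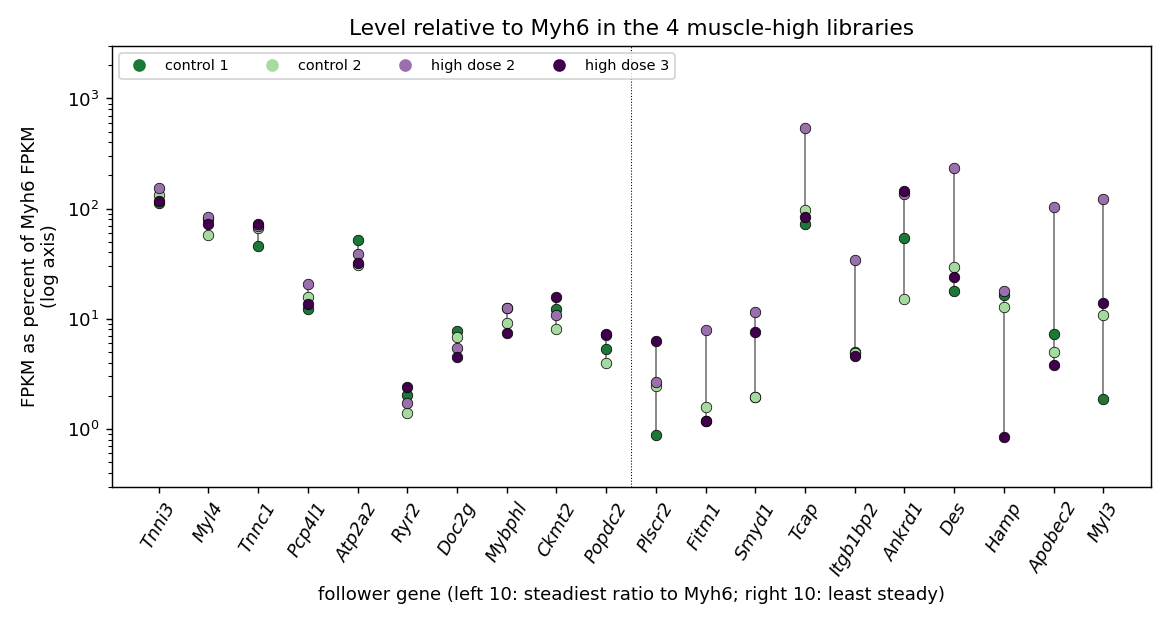
FPKM of 20 followers as a percentage of Myh6 FPKM, on a log axis, with 1 point for each of the 4 muscle-high libraries and a grey line over their range. The 10 genes on the left have the smallest SD of the log2 ratio and the 10 on the right the largest. Tnni3 stays between 113% and 156%, while Myl3 ranges from 1.85% in control 1 to 123% in high dose 2.

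Genes lower in the muscle-high libraries were fewer and had narrow gaps. Of the 249, the widest gap outside the lists was that of Hoxa6, a patterning gene of trunk tissue, at 1.16, 0.481 and 4.40 FPKM in control, 2.84, 5.11 and 6.67 FPKM in model, and 3.16, 0.0987 and 0.578 FPKM in high dose. Scd1, the stearoyl-CoA desaturase of fat and liver, was at 121, 249.7 and 3389 FPKM in control, 1990.0, 7467 and 9250.2 FPKM in model, and 2647, 463 and 1120.3 FPKM in high dose. Plin2, a coat protein of lipid droplets, was at 57.1, 76.4 and 489 FPKM in control, 178, 216 and 199 FPKM in model, and 278, 84.1 and 101 FPKM in high dose. Taldo1, transaldolase of the pentose phosphate pathway, was at 93.8 to 139.8 FPKM against 211 to 438 FPKM. The others of the 10 with the widest gaps were Pcyox1, Pepd, Adam12, Tmem45b, Rnf24 and Pctp.

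Fat markers tended to be lower with heart muscle but overlapped. All 10 white fat genes overlapped, with a median of -1.35, and their sum was 2096 to 7415 FPKM in the muscle-high and 4966 to 20825 FPKM in the muscle-low libraries. Fabp4, the fatty acid carrier of fat and capillaries, was at 1454 to 5670.2 FPKM against 4373 to 17306 FPKM. Of 9 brown fat genes 8 overlapped and 1 was lower, with a median of -1.18. That member was Ppara, the fatty acid receptor, at 2.08 to 4.29 FPKM against 6.60 to 29.4 FPKM. FPKM is relative to the library total, so a larger share of any tissue lowers the rest, and the part of fat content in the lower genes was not tested.

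Genes of the arch wall were not divided by heart muscle. Of 20 contractile smooth muscle genes 18 overlapped, with a median of 0.37. The other 2, Des and Pcp4l1, were followers, and Des is also a sarcomere gene. Myh11, smooth muscle myosin, was at 101 to 323 FPKM against 49.2 to 449 FPKM. Of 19 elastic fibre and matrix genes 17 overlapped and 2, Fbln1 and Pdgfra, were higher, with a median of 0.13, and Eln, elastin, was at 69.8 to 175 FPKM against 33.2 to 537 FPKM. Of 20 endothelial genes 19 overlapped and 1 was lower, Aqp1, a water channel, at 117 to 183 FPKM against 199 to 426 FPKM, with a list median of -0.46. Ribosomal protein genes were slightly higher: 10 of 23 without overlap, none a follower, with a median of 0.50.

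Mesothelium and epicardium, the layers that cover the heart, gave 1 follower among 9 genes, with a median of 1.78. That gene was Tcf21, a factor of epicardium and fibroblasts, at 28.7, 23.3 and 0.311 FPKM in control, 0.420, 0.425 and 0.0538 FPKM in model, and 0.247, 6.74 and 9.40 FPKM in high dose. Upk3b, a mesothelial membrane protein, overlapped, at 68.6 and 56.0 FPKM in control 1 and 2, 4.95 and 2.31 FPKM in high dose 2 and 3, and 44.4 FPKM in model 2. The list summed to 30.6 to 290 FPKM in the muscle-high and 13.0 to 125 FPKM in the muscle-low libraries.

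Other neighbouring tissues varied by library rather than by side. All 10 airway and lung genes tested overlapped, with a median of 3.11, and were high in control 2 and high dose 2, where the sums were 9884 and 31697 FPKM against at most 110.5 FPKM elsewhere. Scgb1a1, the secretoglobin of airway club cells, alone was at 6425 and 20438 FPKM in those 2 libraries. Of 16 fast skeletal muscle genes 15 overlapped and 1 was higher, with a median of 0.071; the latter was Myl1, at 43.8 to 545 FPKM against at most 41.0 FPKM. All 14 sympathetic and neuronal genes overlapped, with a median of 2.20 and sums from 18.3 FPKM in model 2 to 5815 FPKM in high dose 1, and so did all 9 Schwann cell genes, with a median of 0.87. No gene of the macrophage (15 tested, median -0.68), lymphocyte (11 tested, -0.26), erythroid (8 tested, -0.53) or thyroid, parathyroid and thymus lists (2 tested, -0.70) separated the sides.

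**Figure D4:**
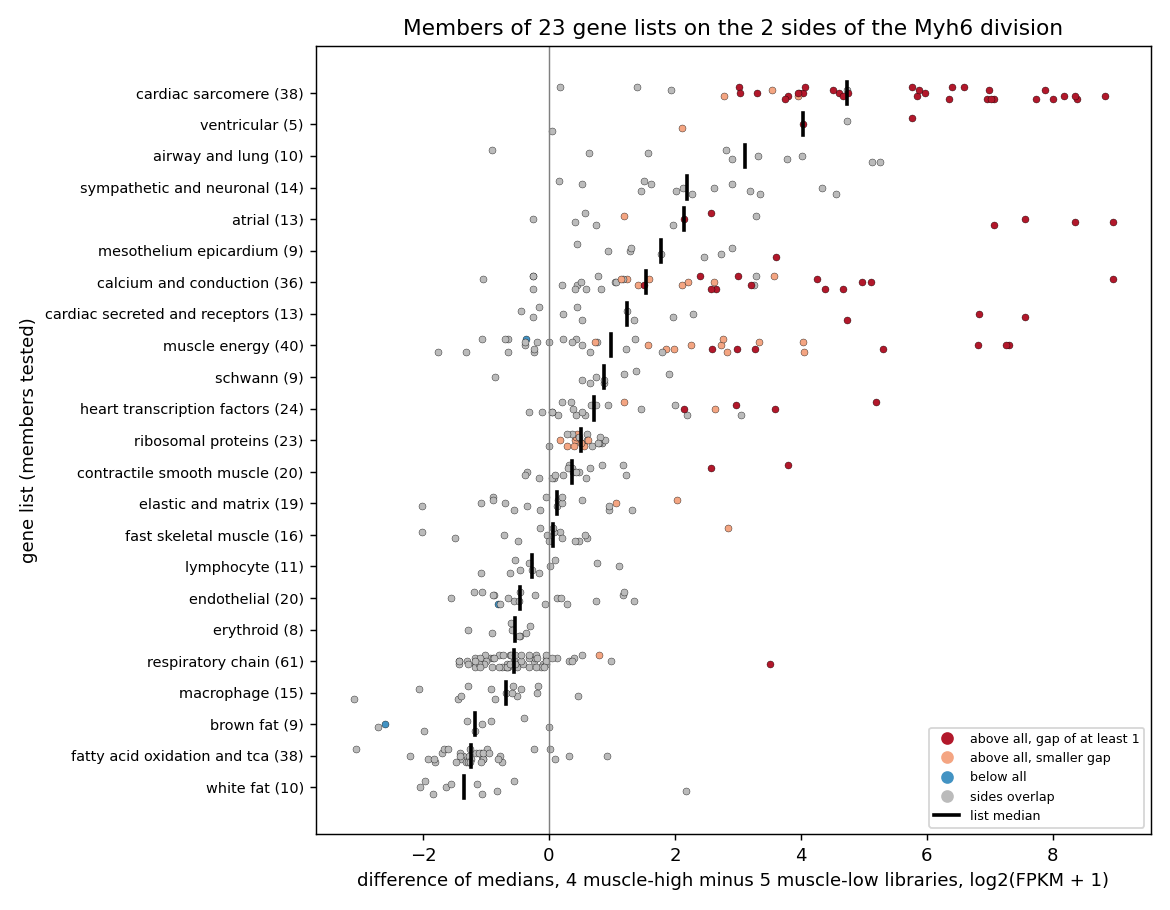
Difference of medians, muscle-high minus muscle-low libraries, on the log2(FPKM + 1) scale, for the tested members of 23 gene lists. Each point is 1 gene, coloured by whether the sides overlap, and the black bar is the median of the list. Sarcomere genes lie farthest to the right (median 4.74) and are nearly all apart, while airway and neuronal genes with medians of 3.11 and 2.20 all overlap.

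The division could also be seen inside each labelled group that holds both kinds of library. In control, 986 genes (7.65%) were at least 2-fold higher in FPKM + 1 in both control 1 and control 2 than in control 3. In high dose 707 (5.48%) were so in high dose 2 and high dose 3 against high dose 1. The overlap was 354 genes, which is 35.9% of the control genes and 50.1% of the high dose genes. Without control 1 the first share was 17.6%. Of the 354, 136 also lay above every model library by that gap and are the followers. In the other direction 622 genes of control and 981 of high dose shared 133, or 21.4% and 13.6%, and 0 of these lay under every model library by the gap. Both contrasts were chosen by Myh6, so the shares are a description.

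The labelled groups were compared with limma over all 12895 genes, with the side of the division as a term beside the group. All 3 model libraries were muscle-low, so in the comparisons with model the term rests on the spread within control and high dose. Without the term, the median log2 difference of the followers was -2.41 for model against control and 2.35 for high dose against model. With it these medians were -0.0061 and -0.14; the followers were chosen by the division that the term fits, so that shift follows from the choice and is no finding. High dose against control had 2 muscle-high libraries in each group, and the followers' median was -0.12 with and without the term. That value rested on single libraries: it was 0.31 without control 1 and -0.68 without control 2, and -0.69 with weights for each library.

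No gene (0%) passed an adjusted p of 0.05 in limma in any of these comparisons. With the term, 1538 genes had an unadjusted limma p under 0.05 for model against control. The counts were 1920 for high dose against model and 1012 for high dose against control. Without the term the 3 counts were 821, 1729 and 701. If no gene differed, about 645 of the 12895 genes would be expected by chance in each fit. The smallest adjusted p by limma was 0.193 (Sgk2) for model against control, 0.150 (Jun) for high dose against model and 0.118 (Retnlg) for high dose against control. Without control 3, limma called Pirt lower in model than control (adjusted p = 0.0159), and Pirt, Atl1, Mapk10, Prune2 and Snap91 higher in high dose than model. In that fit all controls are muscle-high and all model libraries muscle-low, so high dose 1 is the only library that separates the term from the groups, and these calls rest on it. These 5 genes are expressed in neurons, and high dose 1, the library highest in neuronal genes, held Pirt at 65.6 FPKM against at most 17.1 FPKM elsewhere; the part of nerve tissue was not tested.

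Values of the genes with the smallest p are given with the SE of the fit. For model against control the log2 difference was -3.97 ± 0.567 for Apoe, -3.46 ± 0.372 for Sgk2, a kinase, and -4.30 ± 0.592 for Gmpr, a purine enzyme, and 2.53 ± 0.337 for Cd14 and 3.96 ± 0.638 for Clec4d, both receptors of myeloid cells. For high dose against model it was 3.29 ± 0.405 for Tsku, a secreted protein, 2.27 ± 0.339 for the metallothionein Mt1, -2.05 ± 0.242 for Jun and -2.41 ± 0.328 for Klf4, transcription factors both, and -2.50 ± 0.348 for the neurotrophin receptor Ntrk3. For high dose against control it was 3.76 ± 0.395 for Retnlg, a neutrophil product, 2.20 ± 0.285 for Srebf1, a regulator of fatty acid synthesis, -3.94 ± 0.463 for Apoe and -2.59 ± 0.319 for Lgals4, a galectin. None was a follower of heart muscle, and none of these differences passed after adjustment. Sgk2 was at 2.34, 1.86 and 18.9 FPKM in control 1 to 3 and at most 0.734 FPKM in model. Gmpr was at 86.9, 61.1 and 767 FPKM in control 1 to 3 and at most 44.4 FPKM in model. Their fitted differences from model to control therefore lean on control 3, the only muscle-low control. Control 1 and 2 still lay above every model library for both genes. Apoe, Cd14 and Clec4d were instead lowest in control 3 among the controls.

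Among muscle-high libraries alone, 2 control and 2 high dose libraries could be compared. Limma called no gene (0%), with a smallest adjusted p of 0.753 (Lgals4). At an unadjusted limma p under 0.05 there were 614 genes, 303 higher and 311 lower in high dose, fewer than the 645 expected by chance. The median log2 difference of the followers was -0.012, but 0.76 without control 1 and -1.02 without control 2. Myh6 differed by -0.58 ± 0.815 on the log2 scale, Nppa by -0.50 ± 1.06 and Tnnc1 by -0.22 ± 0.696, each less than its SE. These libraries were chosen by Myh6 and these genes are the markers. The values therefore describe the chosen libraries and cannot say whether the groups differ in heart muscle genes. The fitted differences of smallest p were -3.00 ± 0.287 for Lgals4 and -3.83 ± 0.391 for the mesothelial gene Upk3b in the lower direction, and 3.36 ± 0.399 for the acute-phase gene Serpina3n and 3.28 ± 0.425 for Acaca, acetyl-CoA carboxylase, in the higher. Apoe differed by -4.19 ± 0.656, from 829 and 1006 FPKM in control 1 and 2 to 93.7 and 25.4 FPKM in high dose 2 and 3, which do not overlap.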

How the data were processed

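The authors deposited 1 table of FPKM values for 9 libraries and 21989 genes. Genome builds GRCm38.p5 and mm10 are named per the submitters' processing notes, and how reads were aligned, counted and assigned to strands is not given in the sources used here, so reads of overlapping or antisense genes cannot be told apart. Libraries were made from purified messenger RNA per the labels' protocols. Columns were matched to samples by name. The members, gene lists and tests were chosen with earlier results of these data known. Genes with at least 1 FPKM in at least 3 libraries were analysed as log2(FPKM + 1), a scale that understates the change of low genes. The sides of the division were described by their lowest and highest libraries and medians, with no test. Labelled groups were compared with limma 3.58.1 in R 4.3.3 (trend, two-sided, Benjamini-Hochberg over 12895 genes). The fit was tested on simulated data of 12895 genes for the model and control comparison. It found 0%, 60% and 91.5% of 200 genes given log2 differences of 1, 2 and 4, and called 0, 6 and 14 unchanged genes. The changed genes had a mean log2(FPKM + 1) above 2. Noise was drawn for each gene separately, so variation shared between genes was not simulated. Named genes were the markers and Apoe, up to 10 members of highest median per list and those against it, 20 followers and 10 lower genes outside the lists, the 10 steadiest and 10 least steady relative to Myh6, and the 5 genes of smallest p per direction, of which the text gives those that matter; some genes the rule selects are not reported here, while the list counts keep them. Bmp10, Irx4 and the range examples of other list members were chosen after their values were seen. Positions are from GENCODE M21. Same-numbered libraries of different groups had correlations of deviations from -0.522 to 0.306, and libraries of unlike number from -0.376 to 0.438. The lowest was between control 1 and high dose 1, which lie on opposite sides of the division. The deviations carry that division, so they cannot decide whether the numbers pair the libraries, and the main fits took them as unpaired. Alternatives were another pseudocount, other filters, rescaling, a gap of 2, no muscle term, Myh6 as a covariate, the replicate block, library weights and each library left out. Python 3.11.15, pandas 2.3.3, numpy 2.4.6 and matplotlib 3.10.9 were used.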

Additional observations from a re-analysis of the deposited data

Results flagged for a closer look

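Several list means over single libraries stood apart from the rest of their side of the division by Dixon's criterion. The criterion flags about 1 in 20 groups by chance. It was applied to every gene list on both sides, so some flags would arise by chance alone. The sides are not the study's groups. On the mean log2(FPKM + 1) scale the atrial list was at 6.05 in control 1 against 4.56 to 4.64 in the other muscle-high libraries, and the fast skeletal muscle list at 7.32 in high dose 2 against 1.53 to 2.37. The erythroid list was at 5.41 in high dose 2 against 7.62 to 7.72. Among the muscle-low libraries, the ventricular list was at 0.769 in model 2 against 1.21 to 1.38, and the Schwann cell list at 4.54 in high dose 1 against 2.65 to 3.05.

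For 3 lists the muscle-high libraries of control and of high dose moved in opposite directions from the muscle-low library of their own group. As a mean over 2 muscle-high libraries, the lymphocyte list differed by 1.81 in control and -1.82 in high dose. Its single values were 0.385 and 3.23 in control 1 and 2, and -1.43 and -2.22 in high dose 2 and 3. The fast skeletal muscle list differed by -1.7 and 2.71 as means. Its single values were -1.86 and -1.54 in control 1 and 2, and 5.19 and 0.234 in high dose 2 and 3. For the thyroid, parathyroid and thymus list, with levels near 0, the means were 0.217 and -0.206. These differences between the groups were not tested, and each rests on 1 muscle-low library. Every gene list was examined for such opposite moves.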

How the results depend on the processing

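Leaving out a library can only widen a gap, so the 136 followers stay by construction, and 137 to 179 genes then met the rule. Median-ratio rescaling gave 122 followers, 120 of them among the 136. With a gap of 2 there were 66 followers, and with a pseudocount of 0.1 there were 180. Leaving out each library in turn gave 768 to 1139 genes higher and 258 to 819 lower without overlap, and rescaling gave 451 lower. Genes lower by a log2 gap of 1 numbered 2 with a pseudocount of 0.1 and 0 to 33 with a library left out, 33 being without model 1. The share of control genes recurring in high dose ran from 17.6% to 51.6%. Limma calls numbered 0 to 1 for model against control and 0 to 5 for high dose against model with a library left out, and 0 for high dose against control in every alternative run. With the replicate number as a block, limma called 0 genes in each of the 3 comparisons and changed no other call. No paired analysis was possible for the muscle-high libraries alone because control and high dose share only number 2 there. Values of the genes named for the division moved by more than the spread between libraries in 69 repeats and not in 5937, and none reversed. Depth limits the low genes most, and without counts no counting error is given.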
